A study of Mus musculus with 9 samples.

Results

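A set of 9 genes of iron and haem handling was followed in single cells of mouse brain ependymoma and control brain, taken as the rows of the count tables with the symbols Hmox1, Fth1, Ftl1, Tfrc, Slc40a1, Trf, Slc11a1, Slc11a2 and Cp. All 9 symbols were found once among 32285 mouse genes. The tumor group held 5 mice of the genotype NestinCreERT2;Fus1, the model named EP ZFTA-RELA, in which a Cre recombinase that is active in Nestin-expressing cells after tamoxifen switches on a fusion of Zfta and Rela. The control group held 4 mice labelled NestinCreERT2;TdT, which the design text of the series calls NestinCreERT2. All mice were 6 to 8 weeks old, the tissue label was brain in both groups, and each mouse was 1 library of droplet-based 5′ single-cell RNA-seq. The tissue was dissociated, cleared on Percoll, stained with DAPI and an antibody to the erythroid protein Ter119, and sorted by flow cytometry, in both groups alike. Whether a library was 1 animal or a pool beyond its label was not given in the sources used here.

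Cells take up iron mainly as transferrin, the plasma iron carrier made by Trf, which binds the transferrin receptor made by Tfrc. Iron then leaves the endosome through the proton-coupled transporter made by Slc11a2, and the related transporter made by Slc11a1 moves metal out of the phagosomes of macrophages. Iron that is not used is stored in ferritin, a shell of heavy chains (Fth1), which oxidize iron, and light chains (Ftl1), which help it to form a mineral core. Ferroportin (Slc40a1) is the iron exporter of mammalian cells and works with the ferroxidase ceruloplasmin (Cp). Haem oxygenase 1 (Hmox1) opens the haem ring and releases its iron. In brain, oligodendrocytes are known for transferrin and ferritin, endothelial cells for the transferrin receptor, and phagocytes for haem breakdown.

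Part of this set is controlled after transcription, through iron responsive elements, hairpins with a CAGTGN loop that iron regulatory proteins bind. In a 5′ UTR they act on translation, which a transcript count does not read, and in the 3′ UTR of Tfrc on the stability of the transcript, which it does. They are shown to describe which members hold these letters. The hairpin letters were searched in the whole protein-coding transcripts of the 9 genes on mm10 (GRCm38, GENCODE M21). The pattern was a C, 5 paired bases, CAGTGN with a last base other than G, and 5 paired bases, with G-T pairs allowed. A match was present in the 5′ UTR of Fth1, Ftl1 and Slc40a1, in exon 1 for the ferritins, and 4 matches were present in exon 19, the 3′ UTR, of Tfrc. The loop is in capitals below, each sequence running 5′ to 3′ on the strand of its gene.
Fth1, chr19:9982732-9982760 (+ strand): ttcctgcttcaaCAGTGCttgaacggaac
Ftl1, chr7:45459779-45459807 (− strand): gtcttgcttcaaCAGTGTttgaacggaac
Slc40a1, chr1:45925465-45925493 (− strand): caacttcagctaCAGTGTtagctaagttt
Tfrc, chr16:32631219-32631247 (+ strand): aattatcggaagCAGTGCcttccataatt
Tfrc, chr16:32631598-32631626 (+ strand): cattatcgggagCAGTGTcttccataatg
Tfrc, chr16:32631663-32631691 (+ strand): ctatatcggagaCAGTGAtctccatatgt
Tfrc, chr16:32631710-32631738 (+ strand): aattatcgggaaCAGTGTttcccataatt
Of 21877 coding genes, 222 (1.01%) held a match anywhere in a transcript. No match was found in the transcripts of the other 5 members, which says only that these letters were not there. The pattern allows no unpaired base in the stem, so a hairpin of another shape would be missed. A match is a description and not a measured site.

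The 4 control libraries listed 75222 to 86516 barcodes and the 5 tumor libraries 9001 to 26341. After quality filters 19607 control and 15745 tumor cells remained, 3987 to 5928 and 1577 to 5114 per mouse, with 12963968 to 21519188 and 5902679 to 37588993 unique molecular identifiers (UMIs, counted molecules). Levels are given per mouse as the CPM of the cells summed, the UMIs of a gene scaled to a fixed total of all genes. Cells were placed in classes by marker genes that hold no member of the set, and a class is called, for example, microglia-like. The 8 microglia markers were all detected in the microglia-like class of every mouse, and the 9 astrocyte, endothelial and oligodendrocyte markers in theirs. Cells were gated on at least 3 of these same markers, so this detection does not test the class names. Gates took 49.4% of control cells and 71.8% of tumor cells, so that values for classes leave out the rest. Tumor cells proper were approached as fusion-allele cells, with at least 1 UMI of the fusion or luciferase sequence and in no class but the neural progenitor-like. There were 52, 727, 67, 3152 and 939 in the 5 tumors and none in controls. Cells that met the neural progenitor-like gate and held such a UMI were counted as fusion-allele, so its detection divides these classes. A fusion or luciferase UMI was also seen in 0.752% to 18.8% of microglia-like cells and in 1.28% to 57.9% of neuron-like cells, the highest of both in tumor 4, and its source there was not tested. Free RNA was read from 3000 barcodes per library, those lowest in UMIs. The lists begin at 468 to 517 UMIs, so these barcodes had a median of 559 to 1338 UMIs, and in tumor 3, with 9001 barcodes in all, they were also among those considered as cells. What is called free RNA may therefore hold some cells. By the level of neuronal transcripts it made up an estimated 62.1% to 68.3% of the UMIs of microglia-like cells in controls and 10.6% to 36.2% in tumors. Values in control classes therefore stand in part for this mixture. It was subtracted for the comparison of tumors with controls in microglia-like, astrocyte-like, oligodendrocyte-like and endothelial-like cells, and not for neuron-like cells or for comparisons within a group. The estimates are uncertain in tumor 4, whose free RNA held the neuronal transcript Snap25 at 8.14 CPM, against 245 to 899 in the other tumors. Between 8 libraries, all but control 4, 19 to 45 barcodes were shared per pair.

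In all kept cells together, 6 members were higher in tumors than in controls and 1 was lower (edgeR quasi-likelihood test on the sum of each mouse, Benjamini-Hochberg adjusted over 17592 genes). Fold changes are given as log2 values ± SE, with adjusted p-values of this edgeR test unless another is named. The 6 are haem oxygenase 1, both ferritin chains, ferroportin, Slc11a1 and ceruloplasmin, and the 1 is Slc11a2. The share of all genes called in this comparison was 61.8% (32.3% higher and 29.5% lower), so 7 of 9 is read against a high background. The median log2 fold change of the 9 was 2.02, and that of all tested genes 0.042. Fewer cells of a type and less RNA per cell cannot be told apart in these sums. The cell makeup of the sums also differed, with neuron-like cells at 1307 to 2415 per control and 19 to 469 per tumor.

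Hmox1 was at 2.31, 1.81, 1.59 and 1.50 CPM in controls and 12.5, 179, 112, 47.8 and 36.8 in tumors. The groups did not overlap, and tumor 1 stood closest to the controls and tumor 2 highest (log2 fold change 5.74 ± 0.83, adjusted p = 0.000499). The ferritin light chain, Ftl1, was at 221, 280.0, 271 and 259.8 CPM in controls and 1081, 2497, 2286, 1781 and 1435 in tumors, again with no overlap (log2 fold change 3.10 ± 0.36, adjusted p = 0.000212). Fth1 was at 3774, 4247, 3682 and 3639 CPM in controls against 9396, 10301, 6774, 7183 and 3360.0, and tumor 5 lay below every control (log2 fold change 1.21 ± 0.40, adjusted p = 0.0233). This call was lost without each of the 4 controls in turn, at log2 fold changes of 1.19 (adjusted p = 0.0667), 1.26 (adjusted p = 0.055), 1.22 (adjusted p = 0.0631) and 1.18 (adjusted p = 0.0703), and with 20000 barcodes (log2 fold change 0.85, adjusted p = 0.0838). Reads of ferritin genes can be shared with pseudogene copies, so both levels are uncertain to that extent.

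Cp was at 6.94, 7.95, 6.60 and 5.87 CPM in controls and 44.7, 217, 80.1, 104 and 20.4 in tumors, without overlap (log2 fold change 4.11 ± 0.70, adjusted p = 0.00108). Slc40a1 was at 7.48, 7.02, 8.95 and 8.15 and 22.2, 12.3, 89.3, 10.1 and 14.4. Tumor 3 was far above the other tumors, which were themselves above every control (log2 fold change 2.02 ± 0.58, adjusted p = 0.0127), and without tumor 3 the log2 fold change was 1.20 (adjusted p = 0.00143). Slc11a1 was at 2.01, 1.67, 2.10 and 1.60 against 16.6, 26.5, 57, 8.30 and 10.9, with no overlap (log2 fold change 3.87 ± 0.55, adjusted p = 0.000449). On the uptake side Slc11a2 was at 39, 32.5, 35.4 and 35 in controls and 30.5, 10.9, 23.9, 11.3 and 12.6 in tumors, where every tumor lay below every control (log2 fold change −0.82 ± 0.24, adjusted p = 0.014). In neuron-like cells, its highest class in tumors, the mean was 41 CPM in controls and 44.3 in 4 tumors. The log2 fold change there was 0.09 (adjusted p = 0.787), so this fall was not seen within that class.

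Tfrc and Trf did not pass the test. Tfrc was at 115, 107, 118 and 112 CPM in controls and 72.5, 44.8, 86, 52.5 and 121 in tumors, of which tumor 5 was above all controls (log2 fold change −0.35 ± 0.25, adjusted p = 0.248). Without tumor 5 its log2 fold change was −0.61 (adjusted p = 0.00961). Trf was at 252, 259, 193 and 198 and 521, 535, 551, 255 and 93.8, where tumor 5 was below and tumors 1 to 3 above the controls (log2 fold change 1.01 ± 0.44, adjusted p = 0.0656), and without tumor 5 the log2 fold change was 1.27 (adjusted p = 0.00315). Trf also passed with DESeq2 (adjusted p = 0.0486), with a mitochondrial limit of 10% (adjusted p = 0.0396) and with 5000 barcodes (adjusted p = 0.0339). Under scaling by library size alone the median log2 fold change of all genes moved by −0.24 and that of Hmox1 from 5.74 to 5.43, Ftl1 from 3.10 to 2.81 and Cp from 4.11 to 3.77. The free RNA held Fth1 at 6611 to 7213 CPM in controls and 4262 to 16419.8 in tumors, and Hmox1 at 1.27 to 2.49 and 10.3 to 64.4.

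**Figure D1:**
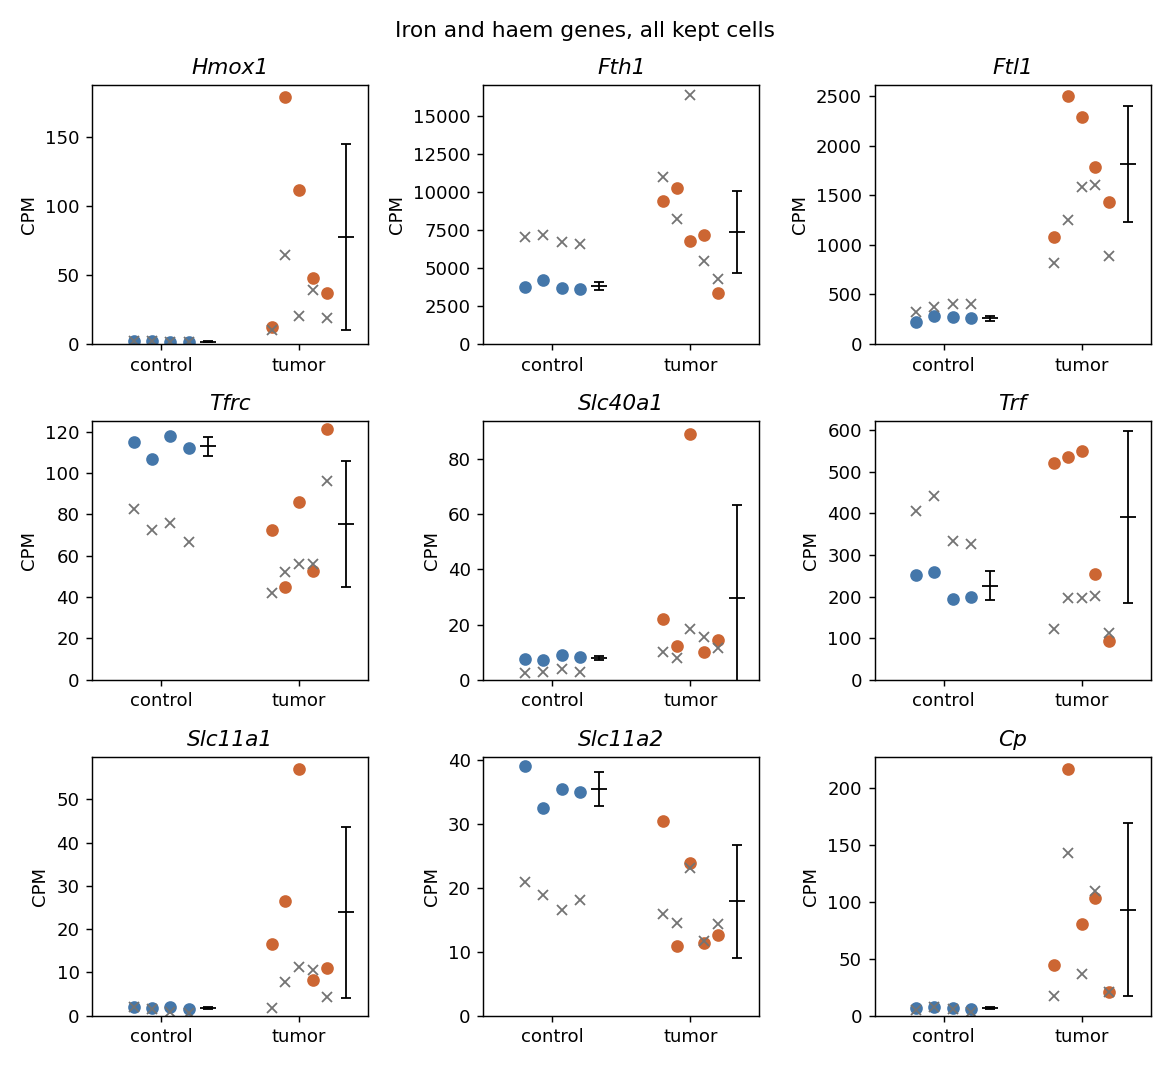
Level of each of the 9 members in all kept cells, in CPM on a linear axis that starts at 0. Blue points are the 4 control mice and orange points the 5 tumor mice, black bars give the mean ± SD (the bar of Slc40a1 in tumors runs below 0 and is cut off there), and grey crosses are the same mouse's 3000 barcodes with fewest UMIs. Hmox1, Ftl1, Slc11a1 and Cp lie higher in every tumor than in any control, and Fth1, Tfrc and Trf overlap.

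Within tumors each member had its own pattern over classes. For each class the sum of its cells in a mouse was compared with the sum of the other gated cells of the same mouse, with the mouse as a block, in mice with at least 20 cells of the class. With scaling by library size alone the share of calls that were higher moved from 42.9% to 20.6% in microglia-like cells and from 46.1% to 59% in neuron-like cells. These comparisons gave 51 calls over 9 classes, which fell to 29 without the block. Each class is compared with a mixture that changes with the tumor, since fusion-allele cells made up a small part of tumors 1 and 3 and most of tumor 4.

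Microglia-like cells had 7 members higher and 2 lower than other gated cells, where 51.8% (22.2% higher and 29.6% lower) of 14067 genes were called. Slc11a1 was at 134, 138, 186, 119 and 127 CPM in these cells of tumors 1 to 5 (log2 fold change 5.15 ± 0.47, adjusted p = 3.42e-05). Of the other classes tabulated, only macrophage-like cells came near, at 63, 118, 207 and 82 in tumors 1 to 4. Levels in neutrophil, lymphocyte and other myeloid gates were not tabulated. Microglia-like cells held 64% to 94.5% of the gated Slc11a1 UMIs of a tumor. Hmox1 was at 24.1, 494, 375, 100.3 and 107 (log2 fold change 2.40 ± 0.41, adjusted p = 0.00114), lowest in tumor 1, whose value lay within the range of other classes. Ftl1 was at 2573, 6036, 4574, 6163 and 4449.8 (log2 fold change 2.20 ± 0.17, adjusted p = 1.60e-05), above the 1102 to 2169 of neural progenitor-like cells, while macrophage-like cells of tumors 1 to 4 were at 6155, 9306, 5496 and 7917. Ferroportin was at 57.9, 38.1, 227, 27 and 41 (log2 fold change 2.38 ± 0.19, adjusted p = 1.86e-05), and tumor 3 again stood far above. The remaining higher members were Fth1 (1.04 ± 0.27, adjusted p = 0.00988), Trf (1.02 ± 0.34, adjusted p = 0.0317) and Slc11a2 (0.95 ± 0.32, adjusted p = 0.0308). These 3 calls were lost with scaling by library size alone, which gave 0.53, 0.50 and 0.43. Trf was also lost without tumor 3, 4 or 5 (down to 0.65, adjusted p = 0.0689) and Slc11a2 without tumor 2, 4 or 5 (down to 0.80, adjusted p = 0.107). Tfrc was lower, at 16.1, 16.6, 7.07, 12.6 and 40.2 CPM (log2 fold change −1.73 ± 0.32, adjusted p = 0.00185), and so was Cp (log2 fold change −1.15 ± 0.32, adjusted p = 0.0148), a call lost without tumor 2 (−1.10, adjusted p = 0.0689).

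Endothelial-like cells had the highest mean level of ferroportin and of the transferrin receptor among the classes. Slc40a1 was at 147, 107, 199.6, 249.8 and 251 CPM in their 5 sums (log2 fold change 4.11 ± 0.65, adjusted p = 0.000676), a range that overlapped with that of microglia-like cells and with the 168, 14.3, 258 and 2.56 of macrophage-like cells in tumors 1 to 4. Tfrc was at 205, 97.1, 429.6, 167 and 227 (log2 fold change 2.05 ± 0.35, adjusted p = 0.00113), and only the lowest of these, tumor 2, fell within the 79.8 to 107 of neuron-like cells. The share of genes called was 34.8% (13.7% higher and 21.1% lower). Hmox1 (−1.69 ± 0.47, adjusted p = 0.016), Trf (−1.83 ± 0.64, adjusted p = 0.0458) and Slc11a1 (−3.55 ± 0.64, adjusted p = 0.00161) were lower than in other gated cells. The Hmox1 call was lost without tumor 2 (−1.31, adjusted p = 0.088) or tumor 5 (−1.54, adjusted p = 0.0531), and without tumor 3 the value was −1.12 (adjusted p = 0.0447). The Trf call was lost without tumor 1 (−1.32, adjusted p = 0.18), 2 (−1.99, adjusted p = 0.0654) or 3 (−1.12, adjusted p = 0.0651). Cp was at 176, 154, 352, 41.8 and 56.8 and did not pass (log2 fold change 1.18 ± 0.60, adjusted p = 0.149), at 1.82 (adjusted p = 0.0147) without tumor 4 and 0.66 (adjusted p = 0.332) without tumor 3. In mural-like cells, measured in 3 tumors, Cp was at 119.8 to 505 CPM, also not called (log2 fold change 0.87 ± 0.56, adjusted p = 0.413). It passed with at least 10 cells per mouse (1.28, adjusted p = 0.047) and was at −0.15 (adjusted p = 0.907) without tumor 3.

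Oligodendrocyte-like cells had the highest mean level of Trf and Fth1, although their median share of the gated Fth1 UMIs of a tumor, 15.6%, was below that of microglia-like (22.5%) and fusion-allele cells (25%). Trf was at 5120.3, 6017, 7320.5, 227 and 3584 CPM and Fth1 at 39087, 40339, 34919, 2954 and 21456 in tumors 1 to 5. Tumor 4 was low for both and was also the tumor in which the oligodendrocyte marker Mobp was low, at 93.4 CPM, and free RNA was estimated at 78.9% of the class. With that free RNA subtracted tumor 4 was left with 164 CPM of Trf and 0 of Fth1. Neuronal Snap25 stood at only 8.14 CPM in the free RNA of tumor 4, so this estimated share and both values are uncertain. Trf (4.25 ± 0.73, adjusted p = 0.000587) and Fth1 (2.06 ± 0.56, adjusted p = 0.0135) were higher than in other gated cells, with 29.8% (11.5% higher and 18.3% lower) of genes called. The Fth1 call was lost without tumor 1 (1.81, adjusted p = 0.0607), 3 (1.64, adjusted p = 0.0883) or 5 (1.91, adjusted p = 0.0963), and with 5000 barcodes (1.94, adjusted p = 0.0885). A limit of at least 50 cells per mouse leaves out tumors 3 and 5, with 30 cells each, and keeps tumor 4. Under it both calls were lost, at 3.35 (adjusted p = 0.069) for Trf and 1.41 (adjusted p = 0.376) for Fth1. Hmox1 (−2.04 ± 0.43, adjusted p = 0.00289), Slc40a1 (−4.55 ± 0.68, adjusted p = 0.000209), Slc11a1 (−5.59 ± 0.75, adjusted p = 8.75e-05) and Cp (−3.19 ± 0.47, adjusted p = 0.000192) were lower. Slc11a1 rested on 1 UMI in tumor 4 and none in the others. Slc40a1 was seen in 0.826% of these cells in tumor 2, in 0.73% in tumor 4 and in none of the other tumors.

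Neuron-like cells, summed in 4 tumors since tumor 4 had 19, were high in Slc11a2 and low in the other members but Tfrc, with 57.8% (26.7% higher and 31.1% lower) of genes called. Slc11a2 was at 58.2, 34.3, 50.8 and 34.1 CPM (log2 fold change 1.22 ± 0.27, adjusted p = 0.0022), above the 14.6 to 28.9 of endothelial-like cells, which came next. The other members except Tfrc were lower, from Ftl1 (−2.81 ± 0.27, adjusted p = 7.87e-06) and Trf (−4.05 ± 0.47, adjusted p = 2.54e-05) to Slc11a1 (−5.01 ± 0.54, adjusted p = 1.64e-05).

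Fusion-allele cells held 6 members lower than other gated cells and none higher, with 39% (17.7% higher and 21.3% lower) of genes called. Ferroportin was at 0, 0.964, 0, 1.20 and 1.41 CPM (log2 fold change −4.67 ± 0.31, adjusted p = 4.37e-06) and Slc11a1 at 0, 0.578, 0, 0.962 and 0.606 (log2 fold change −5.48 ± 0.32, adjusted p = 2.08e-06). The zeros of tumors 1 and 3 rest on few cells, and 3 counts would stand at 15.3 and 6.16 CPM there. Trf (−2.29 ± 0.43, adjusted p = 0.00263), Hmox1 (−1.17 ± 0.33, adjusted p = 0.0179), Fth1 (−0.90 ± 0.17, adjusted p = 0.00261) and Ftl1 (−0.77 ± 0.12, adjusted p = 0.000691) were lower by less, and Hmox1 lost its call without tumor 2 (−1.22, adjusted p = 0.0535). Cp was at 0, 302, 37, 106 and 13.7 CPM, from no UMI in tumor 1 to the highest value in tumor 2, and the class showed no call (log2 fold change −0.09 ± 0.41, adjusted p = 0.89), with values from −0.64 to 0.11 without 1 tumor. Tfrc was at 66.4, 50.1, 51.4, 53.3 and 135, highest in tumor 5 (log2 fold change 0.24 ± 0.21, adjusted p = 0.398), and without tumor 5 the value turned to −0.07. Without the mouse block the calls of Fth1, Ftl1, Hmox1 and Trf were lost in this class. Astrocyte-like cells (28.6% of genes called, 13% higher and 15.7% lower) had Slc40a1, Slc11a1 and Ftl1 lower, cells like oligodendrocyte precursors (OPC-like, 14.5%, 5.45% higher and 9.06% lower) had Hmox1, Fth1, Ftl1, Tfrc, Slc40a1 and Slc11a1 lower, neural progenitor-like cells (21.4%, 7.17% higher and 14.2% lower) had Fth1, Slc40a1, Trf, Slc11a1 and Slc11a2 lower and mural-like cells (10.4%, 5.43% higher and 4.98% lower) had Hmox1, Fth1 and Trf lower. None of these 4 classes had a member higher. Calls were lost without 1 tumor for Ftl1 in astrocyte-like cells (without tumor 2, −0.80), for Hmox1 (without tumor 2, −1.36) and Tfrc (without tumor 5, −1.03) in OPC-like cells, and for Fth1 in mural-like cells (without tumor 2, −1.03, or 4, −1.11). Without the mouse block all calls of mural-like cells, those of Fth1 and Trf in neural progenitor-like cells, of Ftl1 in astrocyte-like cells and of Hmox1, Fth1, Ftl1 and Tfrc in OPC-like cells were lost. In neural progenitor-like cells Slc11a2 (−0.99 ± 0.32, adjusted p = 0.0415) lost its call without each of the 5 tumors in turn (adjusted p = 0.0689 to 0.135), with DESeq2, limma voom, the mitochondrial limit, 5000 barcodes, 1 more marker or at least 50 cells, and without the block.

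**Figure D2:**
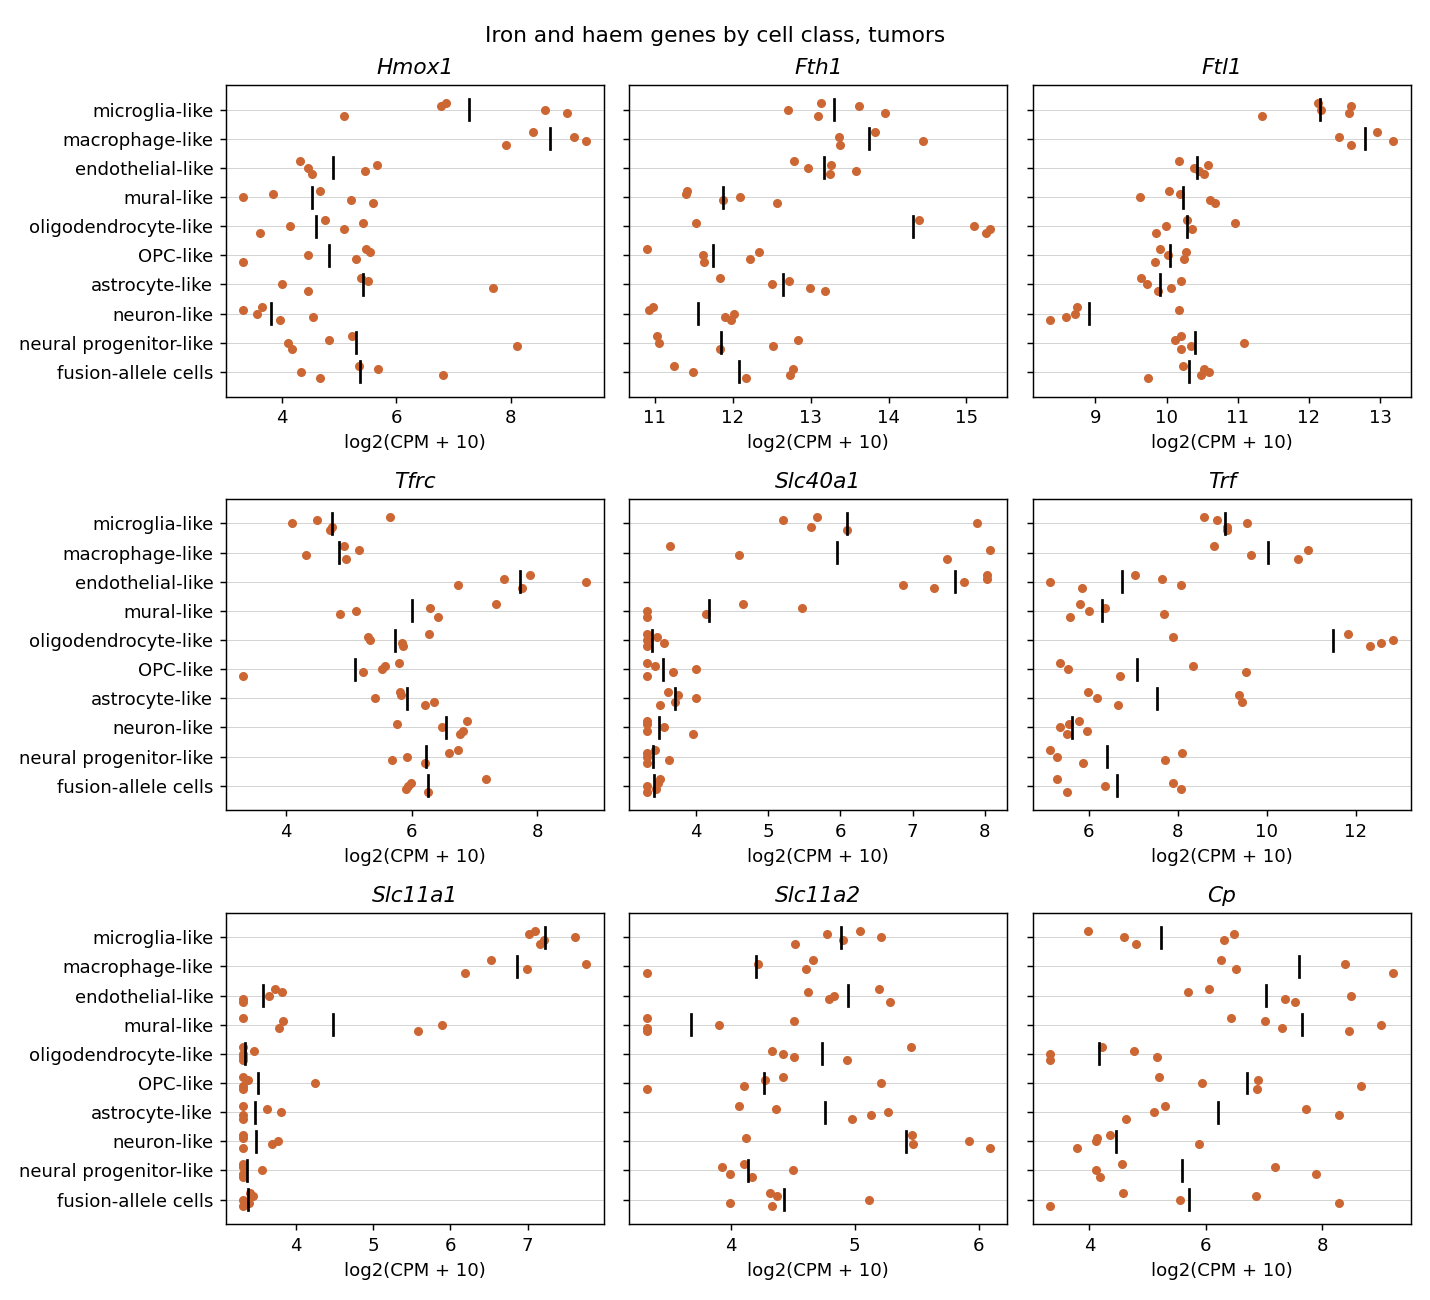
Level of each member in the gated classes of the tumors, on a log2 scale (x axis, CPM + 10), with 1 point per tumor that holds at least 10 cells of the class and a black bar at the mean of the log2 values. Slc11a1 is highest in microglia-like and macrophage-like cells, Slc40a1 in endothelial-like cells with high points in microglia-like and macrophage-like cells, and Trf in oligodendrocyte-like cells of 4 tumors.

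In controls the classes with enough cells were compared in the same way, and free RNA was a large part of the UMIs in small classes. These fits had 3 or 4 mice. The very small SE and adjusted p-values among them do not measure the spread between mice, which the values per mouse show where given. Microglia-like cells (56.4% of 13628 genes called, 26.5% higher and 29.9% lower) had 6 members higher and 2 lower than other gated cells. Slc11a1 was at 37.6, 30.3, 73.3 and 42.8 CPM (log2 fold change 5.91 ± 0.40, adjusted p = 1.81e-31) and Slc40a1 at 95.8, 84.9, 86.1 and 83.5 (log2 fold change 4.00 ± 0.22, adjusted p = 9.43e-40), both far above the free RNA of controls at 0.519 to 2.00 and 2.49 to 3.81 CPM. Hmox1 was at 6.84, 2.02, 15.9 and 6.42, counted from 1 to 5 UMIs per mouse (log2 fold change 2.23 ± 0.68, adjusted p = 0.00305), and lost its call without control 3 (1.59, adjusted p = 0.113). Fth1, Ftl1 and Trf were the other higher members. Fth1, at 4362 to 4866 CPM, lay below the free RNA of controls at 6611 to 7213, and subtraction left 0 to 597 CPM. Its call can therefore rest on free RNA. Tfrc (−1.60 ± 0.16, adjusted p = 1.99e-17) and Slc11a2 (−1.79 ± 0.29, adjusted p = 3.69e-08) were lower, the second the reverse of its sign within tumors. The comparison sums differed, since most gated control cells were neuron-like. Oligodendrocyte-like cells had Trf at 2167, 1314, 2149.8 and 1354 (log2 fold change 3.16 ± 0.10, adjusted p = 1.56e-212) and Fth1 at 10368, 8550.1, 10208 and 7915 (log2 fold change 1.47 ± 0.11, adjusted p = 8.10e-41), Ftl1 also higher, and Tfrc, Slc40a1 and Slc11a2 lower, with 31.6% (13.2% higher and 18.4% lower) of genes called. Here the Tfrc call was lost without control 4 (−0.50, adjusted p = 0.108), and with DESeq2 or limma voom. The Slc11a2 call was lost without control 3 or 4, with DESeq2, with 5000 or 20000 barcodes, and with the mitochondrial limit (−0.43, adjusted p = 0.313), and that of Slc40a1 with 5000 barcodes. Slc40a1 had no UMI in any of the 4 sums, beside a mean of 7.90 CPM in all kept control cells, so its call is limited by depth. Neuron-like cells (71.6%, 36.2% higher and 35.3% lower) had Slc11a2 (1.09 ± 0.14, adjusted p = 1.69e-07) and Tfrc (0.90 ± 0.09, adjusted p = 3.27e-09) higher and the other 7 lower. Erythroid-like cells, 43 to 112 per control (26.3%, 10.8% higher and 15.5% lower), had Ftl1 at 584, 1360.4, 1051 and 915 (log2 fold change 2.84 ± 0.12, adjusted p = 6.02e-116). Their Fth1 was also higher (1.06 ± 0.13, adjusted p = 3.17e-15), a call lost with scaling by library size alone (0.20, adjusted p = 0.126). Their Trf was higher (0.78 ± 0.15, adjusted p = 2.16e-06) and turned to −0.07 with scaling by library size alone, under which the median of all genes moved by −0.85 and 1.41% of calls were higher against 41.1%. Choroid plexus-like cells, in 3 controls (25.8%, 11.4% higher and 14.4% lower), had Ftl1 (1.61 ± 0.19, adjusted p = 2.08e-15) and Trf (1.53 ± 0.19, adjusted p = 1.20e-13) higher, and also Fth1 (0.88 ± 0.21, adjusted p = 0.000302), which lost its call without control 2. Tfrc (−1.86 ± 0.36, adjusted p = 2.56e-06) and Slc11a2 (−1.64 ± 0.60, adjusted p = 0.0272) were lower, the first lost without control 3 and the second without control 2 or 3. In this class the share of calls that were higher was 44.2%, 28.6% with library size alone and 61.1% with DESeq2. Astrocyte-like cells (37.1%, 16.3% higher and 20.8% lower) had Fth1 and Ftl1 higher, both lost with 5000 barcodes, and Tfrc and Slc40a1 lower. The Slc40a1 call was lost without control 3 or 4, with DESeq2, the mitochondrial limit or 5000 barcodes. Slc40a1 had no UMI there in controls 3 and 4. Fth1 of astrocyte-like (4138 to 6066 CPM), erythroid-like (3471 to 4523) and choroid plexus-like cells (4970 to 5302) lay below control free RNA. So did Trf of erythroid-like cells (156 to 253 against 326 to 442). Ftl1 of astrocyte-like and oligodendrocyte-like cells and Trf of choroid plexus-like cells overlapped with it. These higher calls can rest on free RNA too.

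In microglia-like cells, 90 to 150 per control and 227 to 403 per tumor, 5 of 8 members tested rose in tumors, which are Hmox1, both ferritin chains and both Slc11 transporters, and none fell. The share of all 8275 genes called was 41.4%, and 18.9% were higher. The median log2 fold change of the 8 was 1.47, and that of all genes −0.023. Hmox1 and Slc11a2, with few UMIs in controls, entered these 8 through their levels in tumors, so the count and the median hold that selection.

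Hmox1 was at 6.84, 2.02, 15.9 and 6.42 CPM in controls and 24.1, 494, 375, 100.3 and 107 in tumors. Controls rested on 1 to 5 UMIs each, every tumor lay above every control, and tumors 2 and 3 stood highest (log2 fold change 5.34 ± 0.95, adjusted p = 0.000865). With so few control counts Hmox1 passed the low-count filter through its level in tumors. With limma voom the adjusted p was 0.165, and with free RNA subtracted the log2 fold change was 4.68 (adjusted p = 0.00531). After each cell was thinned to 1000 UMIs, 8.40% ± 4.25 (SD, n = 5) of these cells in tumors and 1.15% ± 1.01 (n = 4) in controls held an Hmox1 UMI. Unthinned, the shares were 5.29% to 37.9% and 0.794% to 5.56%, at a median of 2436 to 6288 and 1901 to 3914 UMIs per cell. Neuron-like cells, which are not known for Hmox1, gave a thinned share of 0.614% ± 0.857 in 4 tumors and 0.159% ± 0.0487 in controls, at 1935 to 2483 and 2377 to 4452 UMIs per cell.

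Ftl1 was at 592, 798, 800.3 and 798 CPM in controls and 2573, 6036, 4574, 6163 and 4449.8 in tumors, with tumor 1 lowest and no overlap (log2 fold change 3.11 ± 0.32, adjusted p = 5.77e-05). Thinned shares of cells with an Ftl1 UMI were 93.5% ± 3.46 in tumors and 46.9% ± 7.80 in controls. Fth1 was at 4591, 4866, 4362 and 4415 and 8749, 15917, 6679, 12548 and 8965, also without overlap (log2 fold change 1.65 ± 0.30, adjusted p = 0.000938). Its control values lay below those of control free RNA (6611 to 7213 CPM), and subtraction left 0 to 597 CPM in controls, so that the subtracted log2 fold change rose to 6.00 (adjusted p = 0.00113). For Ftl1 it was 2.97.

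Slc11a1 was at 37.6, 30.3, 73.3 and 42.8 CPM in controls and 134, 138, 186, 119 and 127 in tumors, and again no control reached a tumor (log2 fold change 2.04 ± 0.26, adjusted p = 0.00012, and 1.38 with free RNA subtracted). Slc11a2 was at 13.7, 6.06, 15.9 and 10.7 and 12.9, 20.1, 27.1, 17.4 and 23, where tumor 1 fell within the controls, which held 3 to 5 UMIs each, and the free RNA of tumors held 11.6 to 23.2 CPM (log2 fold change 1.29 ± 0.36, adjusted p = 0.0115). Slc11a2 too passed the low-count filter through its level in tumors. It lost its call with limma voom (adjusted p = 0.0623), with 5000 barcodes (0.81, adjusted p = 0.21), with scaling by library size alone (0.86, adjusted p = 0.0755) and without control 2 (1.04, adjusted p = 0.0502).

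Slc40a1 did not pass the test in these cells. It was at 95.8, 84.9, 86.1 and 83.5 CPM in controls and 57.9, 38.1, 227, 27 and 41 in tumors, so 4 of 5 tumors lay below every control and tumor 3 above (log2 fold change 0.21 ± 0.52, adjusted p = 0.781). Without tumor 3 its sign turned and it passed, at −0.60 (adjusted p = 0.035). With scaling by library size alone, under which the median of all genes moved by −0.43, its log2 fold change was −0.17, and with free RNA subtracted −0.65. Tumor 3 also stood apart in haemoglobin, with Hbb-bs at 9798 CPM in its free RNA against 51.3 to 472 in the other tumors and at 966 CPM in its microglia-like cells against 6.00 to 25.1, and the part of this in its Slc40a1 was not tested. Tfrc was at 41.1, 34.4, 70.1 and 25.7 and 16.1, 16.6, 7.07, 12.6 and 40.2, with overlap (log2 fold change −0.78 ± 0.46, adjusted p = 0.199), and its log2 fold change was −1.24 (adjusted p = 0.0247) without tumor 5, −0.42 (adjusted p = 0.422) without tumor 3, and −0.44 (adjusted p = 0.537) without control 3. Trf was at 588, 558, 545 and 473 and 541, 538, 744, 463 and 377, with overlap (log2 fold change 0.38 ± 0.21, adjusted p = 0.17, and −0.04 with scaling by library size alone). Cp was too low to pass the filter on low counts of this fit, at 10.3, 8.09, 9.57 and 4.28 and 17.7, 69.7, 14.1, 79.3 and 5.74, and its free RNA level was 3.63 to 7.25 in controls and 17.1 to 143 in tumors. Scaling by library size alone changed the split of all calls, from 45.7% higher to 21.7%.

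**Figure D3:**
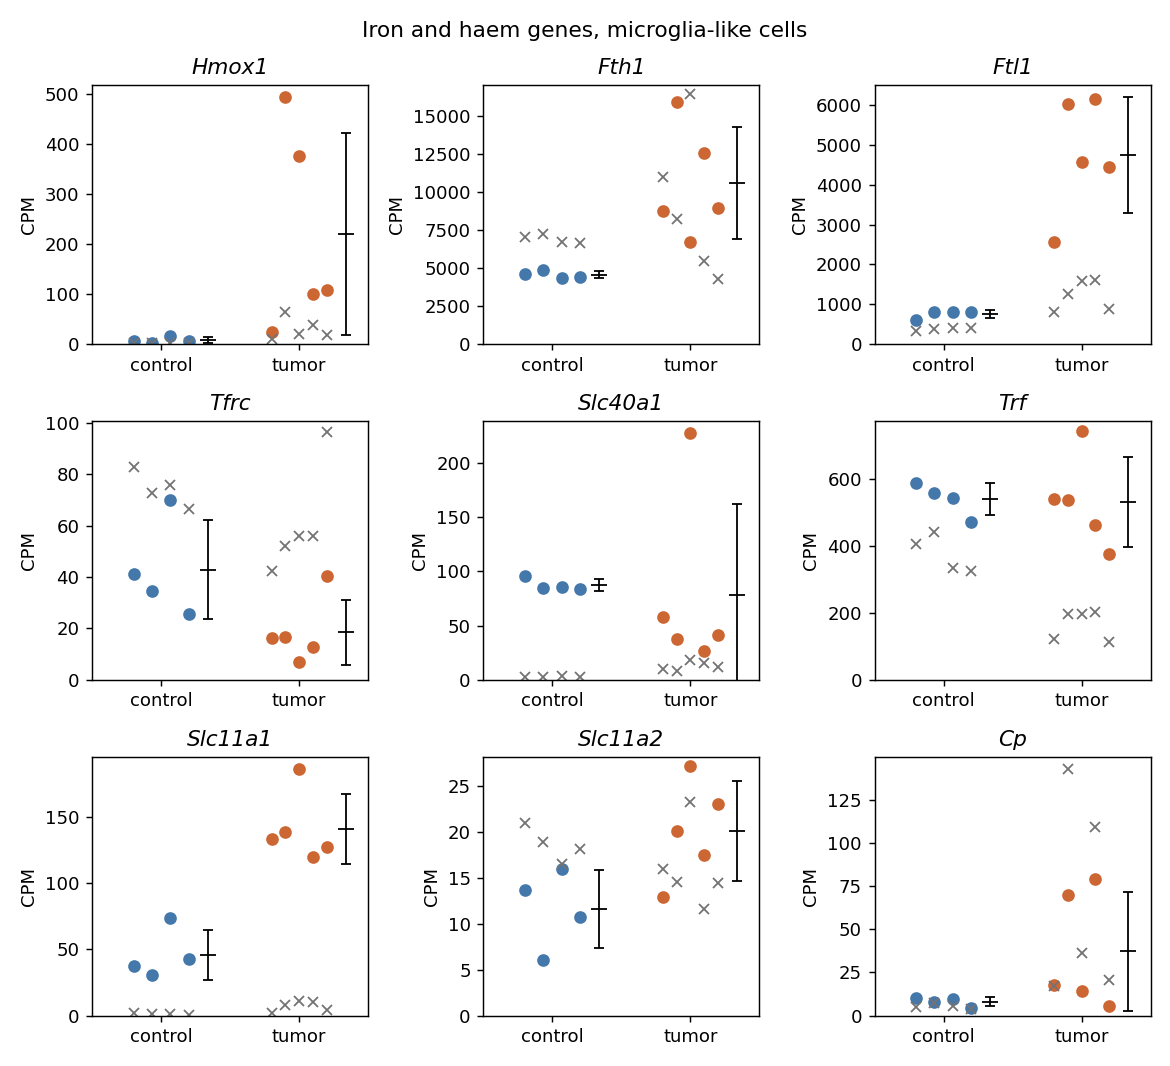
Level of each member in microglia-like cells, in CPM on a linear axis. Blue points are the 4 control mice and orange points the 5 tumor mice, black bars give the mean ± SD (that of Slc40a1 in tumors runs below 0 and is cut off there), and grey crosses are the free RNA of the same mouse. Hmox1, Fth1, Ftl1 and Slc11a1 lie higher in every tumor than in any control, and Slc40a1 lies lower in 4 tumors and higher in tumor 3.

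Ftl1 was called higher in tumors in all 4 other classes that could be tested. In endothelial-like cells, where the fit took mice with at least 10 cells (12 to 22 per control, 81 to 164 per tumor), it was at 376, 471, 501 and 453 CPM in controls and 1466, 1393, 1331, 1527 and 1146 in tumors (log2 fold change 1.73 ± 0.24, adjusted p = 0.000666). The groups did not overlap, and 24.4% (12.4% higher and 12% lower) of 5579 genes were called. Fth1 was at 4155, 4529, 4611 and 4632 and 9758, 12227, 7982, 9788 and 7081 there, also without overlap (log2 fold change 1.20 ± 0.27, adjusted p = 0.00705). With free RNA subtracted 0 to 2332 CPM were left in controls and the value was 3.07 (adjusted p = 0.0134). Hmox1 had no UMI in any of the 4 control sums of this class and was at 13.1, 34, 11.9, 40.8 and 10.0 in tumors, below the level at which it was tested. The floor of 3 counts in a control sum stands at 45.6 to 60.1 CPM, so the difference was not detectable at this depth. Tfrc was at 432, 258, 421 and 319 in controls against 205, 97.1, 429.6, 167 and 227 (log2 fold change −0.55 ± 0.36, adjusted p = 0.299), and without tumor 3 the value was −0.95 (adjusted p = 0.0243). Slc40a1 was at 169, 152, 160.4 and 403 against 147, 107, 199.6, 249.8 and 251, with overlap (log2 fold change −0.11 ± 0.36, adjusted p = 0.859). Its sign turned without control 4 (0.41, adjusted p = 0.476) and without the low-count filter (0.33, adjusted p = 0.636). Trf (−0.27 ± 0.59, adjusted p = 0.778) and Cp (0.81 ± 0.60, adjusted p = 0.363) did not pass. Without 1 mouse Trf ranged from −0.80 (tumor 2) to −0.04 (tumor 3), and its sign turned without the low-count filter and with 1 more marker. Cp was at 0.26 (adjusted p = 0.751) without tumor 3 and passed without that filter, at 1.24 (adjusted p = 0.0199).

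In astrocyte-like cells (31.8% of 7399 genes called, 15.4% higher and 16.4% lower) Cp was at 12.4, 0, 4.33 and 10.3 CPM in controls and 14.7, 304, 24.4, 201 and 29.2 in tumors. Tumors 2 and 4 were far above the others, and controls rested on 0 to 3 UMIs (log2 fold change 4.37 ± 1.17, adjusted p = 0.0113). With so few control counts Cp passed the low-count filter through its level in tumors. The call was lost with limma voom, at 3.14 (adjusted p = 0.32), and was not kept with free RNA subtracted. The free RNA of tumors held Cp at 17.1 to 143 CPM, and 30.6% to 88.6% of the UMIs of this class in tumors were estimated to be free RNA. Ftl1 was at 284, 453, 429 and 395 and 930.4, 1057, 838, 1172 and 785, without overlap (log2 fold change 1.30 ± 0.26, adjusted p = 0.00187), and lost its call with free RNA subtracted (1.29, adjusted p = 0.364). Fth1, Tfrc, Trf and Slc11a2 did not pass.

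In oligodendrocyte-like cells (26.8% of 4713 genes called, 12.7% higher and 14.1% lower) Ftl1 was at 316, 407, 491 and 422 CPM in controls and 915, 1297, 1009.7, 1975 and 1240.1 in tumors (log2 fold change 1.75 ± 0.29, adjusted p = 0.00157), without overlap. Fth1 (1.70 ± 0.61, adjusted p = 0.0554) and Trf (1.47 ± 0.68, adjusted p = 0.124) did not pass, and 4 of 5 tumors lay above every control for each, tumor 4 being the exception. Without tumor 4 the values were 1.99 (adjusted p = 0.000248) for Fth1 and 1.78 (adjusted p = 0.00014) for Trf. With free RNA subtracted Trf was at 0.67 (adjusted p = 0.542), and with limma voom at 0.94 (adjusted p = 0.407). Fth1 passed with DESeq2, a mitochondrial limit of 10%, 20000 barcodes or no filter on low counts (adjusted p = 0.0171 to 0.0435), and Trf without that filter (adjusted p = 0.018). With scaling by library size alone 35.7% of calls in this class were higher against 47.4%, and in the neuron-like class 60% against 48.9%. In neuron-like cells of 4 tumors (12.5% of 12455 genes called, 6.11% higher and 6.38% lower) Trf fell, from 186, 189, 136 and 149.7 CPM in controls to 35.7, 52.3, 30.8 and 44.5 (log2 fold change −2.09 ± 0.23, adjusted p = 0.000179), with no overlap. The free RNA of controls held Trf at 326 to 442 CPM and that of tumors at 113 to 202. It was not subtracted in this class, so its part in the changes of neuron-like cells was not tested. Ftl1 rose there from 164, 191, 182 and 206 to 319, 373, 408 and 416 (log2 fold change 0.95 ± 0.18, adjusted p = 0.00476), beside free RNA at 320.3 to 406 CPM in controls and 812 to 1599.5 in tumors, a call lost when doublets were kept (adjusted p = 0.0511). Cp (1.98 ± 0.63, adjusted p = 0.0616) and Tfrc (−0.51 ± 0.17, adjusted p = 0.0703) did not pass, and both passed with DESeq2 (adjusted p = 0.0322 and 0.00072). Cp was at 2.49 (adjusted p = 0.0183) without tumor 1, and 0.42 (adjusted p = 0.601) without tumor 2, the tumor in which it was highest. Tfrc was at −0.60 (adjusted p = 0.038) without tumor 2.

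**Figure D4:**
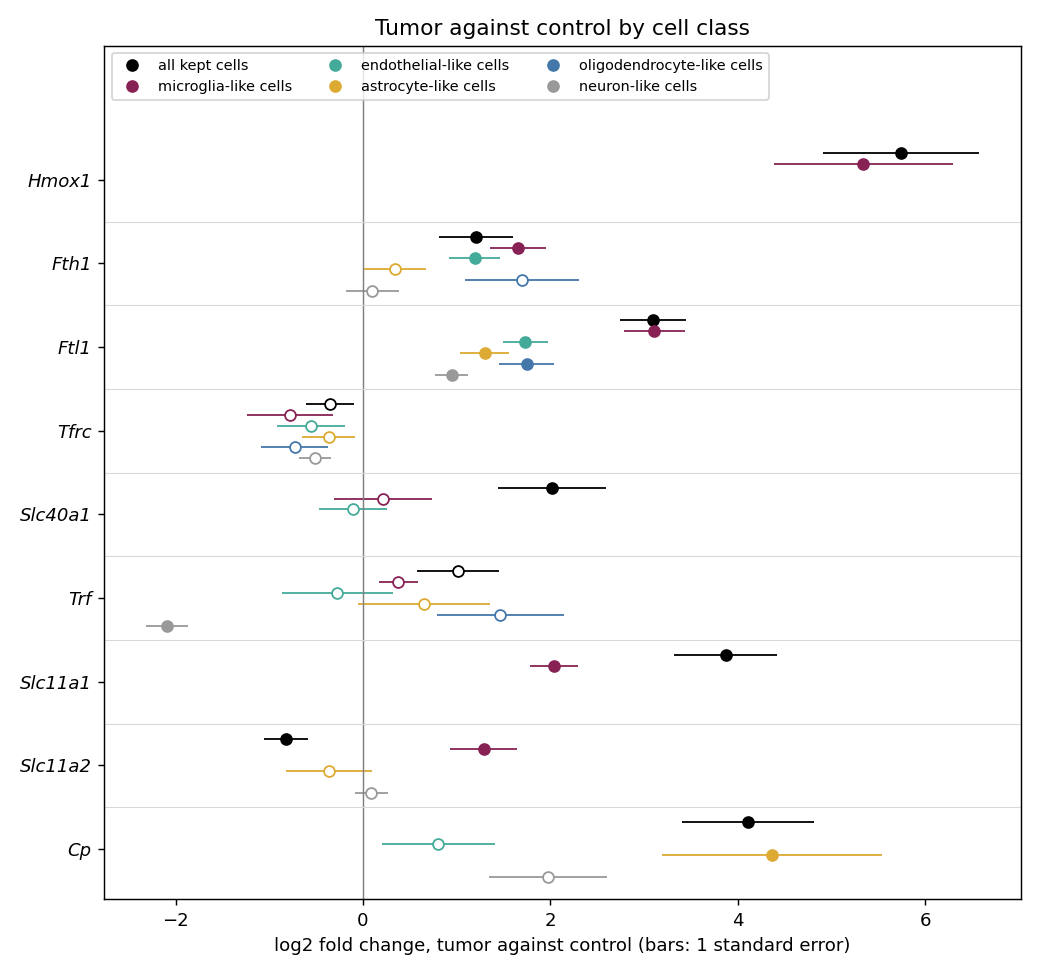
Log2 fold change of each member between tumors and controls (x axis, edgeR, with its SE) for each cell class in which it could be tested (colors). Filled points passed an adjusted p of 0.05 over all genes and open points did not. Ftl1 lies to the right of 0 in every class, and Trf lies to the left in neuron-like cells.

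Macrophage-like cells, 13, 120, 18 and 62 in tumors 1 to 4, were compared with microglia-like cells of the same tumors, where 3.6% (1.78% higher and 1.82% lower) of 8855 genes were called. Hmox1 was at 231, 631, 543 and 325 CPM in macrophage-like cells, above the microglia-like level of the same tumor in all 4 (log2 fold change 1.13 ± 0.30, adjusted p = 0.0363). Its call was lost without tumor 1 (0.82, adjusted p = 0.165), 2 (1.48, adjusted p = 0.0513) or 4 (0.99, adjusted p = 0.244), with 5000 barcodes (0.56, adjusted p = 0.597), with DESeq2 and without the block. Trf was at 1659.7, 793, 1921 and 438 and did not pass (log2 fold change 0.81 ± 0.25, adjusted p = 0.0794), and without tumor 4 it was 1.14 (adjusted p = 0.0241). Cp, at 588, 81.7, 327 and 66.6, did not pass either (log2 fold change 1.90 ± 0.55, adjusted p = 0.0582), at 2.95 (adjusted p = 0.00123) without tumor 4, 1.19 (adjusted p = 0.475) without tumor 1, and 0.97 (adjusted p = 0.541) without tumor 3. Fth1, Ftl1, Tfrc, Slc40a1, Slc11a1 and Slc11a2 did not pass. Controls had 5 to 8 macrophage-like cells each, too few for a test between tumors and controls.

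The balance within the set was read as the log2 ratio of 2 transcripts in the same sum, with 10 CPM added to each, and tested over mice by a two-sided exact permutation test. With 5 against 4 mice the smallest p is 0.00794, and 15 ratios were tested together. Heavy to light chain ferritin in all kept cells was 3.84 ± 0.14 (SD, n = 4) in controls and 1.99 ± 0.71 (n = 5) in tumors, a difference of −1.86 (exact permutation p = 0.0159, adjusted p = 0.0476). Every tumor lay below every control. In microglia-like cells it was 2.60 ± 0.23 and 1.15 ± 0.46 (difference −1.46, exact permutation p = 0.00794, adjusted p = 0.0476), and in astrocyte-like cells 3.77 ± 0.04 and 2.75 ± 0.42 (difference −1.02, exact permutation adjusted p = 0.0476). The receptor to heavy chain ratio in microglia-like cells was −6.50 ± 0.52 and −8.57 ± 0.70 (difference −2.07, exact permutation adjusted p = 0.0476). Ferroportin to receptor in all kept cells went from −2.78 ± 0.04 to −1.34 ± 0.89 (difference 1.44, exact permutation adjusted p = 0.0476). The other 10 ratios did not pass. In neuron-like cells, with 4 against 4 mice, the smallest p is 0.0286, so a ratio there could hardly pass. Heavy to light chain ferritin reached that p, at 4.00 ± 0.14 in controls and 3.12 ± 0.61 in tumors (exact permutation adjusted p = 0.0714). All 5 calls were lost without each control and without each of tumors 1 to 4 in turn, and without tumor 5 there were 9. Fewer mice raise the smallest p.

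The ferritin ratio depended on free RNA. The free RNA itself had a log2 ratio of 3.99 to 4.42 in controls and 1.77 to 3.75 in tumors. With it subtracted the difference in microglia-like cells turned to 4.00 (from −3.11 ± 2.51 in controls to 0.88 ± 0.43 in tumors, exact permutation adjusted p = 0.0357), and that in astrocyte-like cells to 5.14 (adjusted p = 0.143). Little Fth1 was left in control microglia-like cells after subtraction, so the direction of this ratio in both classes holds only for the values as counted. The difference of the tumor effect between classes was tested for 54 pairs of a member and 2 classes by exact permutation, and none passed (smallest p = 0.00794, adjusted p = 0.119). With 54 tests and this smallest p, a difference could pass only if several reached the smallest p together, so this count says little.

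**Figure D5:**
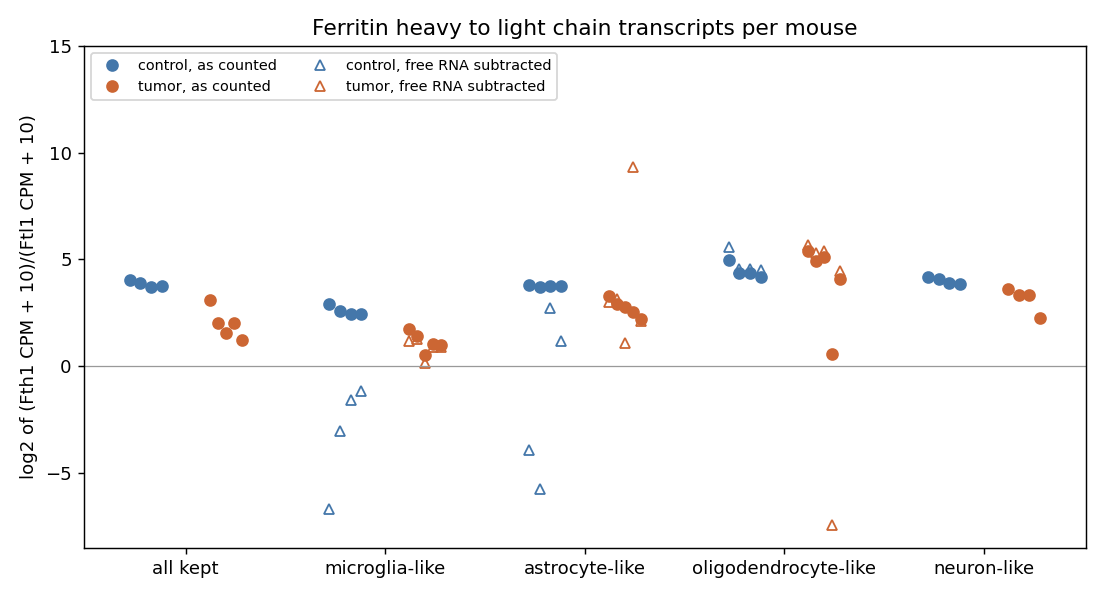
Log2 ratio of heavy to light chain ferritin transcripts, with 10 CPM added to each, by class and mouse. Filled circles are values as counted and open triangles values with free RNA subtracted, blue for controls and orange for tumors. As counted, every tumor lies below every control in all kept, microglia-like and astrocyte-like cells, and after subtraction the control microglia-like values fall below those of tumors.

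Other genes of iron and haem handling were read from lists of 62 further genes. In all kept cells 55 could be tested, of which 26 were higher and 4 lower in tumors, beside 61.8% of all genes called, 32.3% higher and 29.5% lower. In haem breakdown and transport 5 of 8 were higher, among them Slc48a1, a haem transporter of lysosomes (1.51 ± 0.31, adjusted p = 0.00249), Blvrb, a biliverdin reductase (2.57 ± 0.45, adjusted p = 0.00121), and Abcg2, an exporter that takes porphyrins (1.95 ± 0.32, adjusted p = 0.000886). Haem synthesis had 4 of 9 higher, among them Urod, a decarboxylase of that pathway (1.01 ± 0.26, adjusted p = 0.00777). Nfe2l2, which encodes the stress regulator NRF2, rose (3.76 ± 0.39, adjusted p = 0.000156), with 6 of 10 of its list higher and none lower. Among genes of export and its control Hfe (3.88 ± 0.41, adjusted p = 0.000161) and Bmp6, a ligand that drives hepcidin in liver (3.80 ± 0.58, adjusted p = 0.000651), rose and none fell of 3 tested. In uptake 2 rose and 2 fell of 7, with Steap2, a metalloreductase (−1.64 ± 0.37, adjusted p = 0.00421), lower and the zinc and iron importer Slc39a8 (2.48 ± 0.33, adjusted p = 0.000365) higher. Fbxl5, which degrades iron regulatory proteins when iron is present, was lower (−1.23 ± 0.18, adjusted p = 0.000544), and Aco1 and Ireb2 did not pass. Lcn2, which binds siderophores, was higher (5.42 ± 0.97, adjusted p = 0.00133). The remaining calls were 2 of 3 tested higher for ferritin turnover, with Pcbp1 (1.34 ± 0.26, adjusted p = 0.0019), and 3 higher and 1 lower of 8 for mitochondrial iron, where Slc25a37, mitoferrin 1, was lower (−0.91 ± 0.28, adjusted p = 0.0171).

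In microglia-like cells 36 of the 62 could be tested, of which 10 were higher and 1 lower, beside 41.4% of all genes called. From these lists, Blvrb (2.14 ± 0.37, adjusted p = 0.000722), Hmox2, the constitutive haem oxygenase (0.64 ± 0.24, adjusted p = 0.0473), Alas1, the first enzyme of haem synthesis (0.87 ± 0.28, adjusted p = 0.024), and Hfe (1.76 ± 0.35, adjusted p = 0.0016) were higher, as were Lrp1, a receptor for haem bound to haemopexin (0.77 ± 0.19, adjusted p = 0.006), Iscu, Nfs1, Gpx4 and Nfe2l2 (1.39 ± 0.23, adjusted p = 0.000522). Srxn1, sulfiredoxin, was lower (−1.28 ± 0.33, adjusted p = 0.00812). In astrocyte-like cells 8 of 31 were called, all higher, beside 15.4% of all genes higher. The same counts were 5 of 20 beside 12.7% in oligodendrocyte-like cells, 2 of 42 beside 6.11% in neuron-like cells and 3 of 26 beside 12.4% in endothelial-like cells, and these lists are described without a test. In the comparison of macrophage-like with microglia-like cells Cd163, the haptoglobin-haemoglobin receptor (7.08 ± 0.68, adjusted p = 5.01e-07), Hp, haptoglobin (7.03 ± 0.85, adjusted p = 1.43e-05), and Blvrb (1.22 ± 0.23, adjusted p = 0.00211) were higher and Abcg2 was lower (−2.17 ± 0.58, adjusted p = 0.0364) of 42 tested, beside 3.6% of all genes called.

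Genes with the most similar pattern were ranked for each member by Pearson's r of log2 levels over 15 points, the class and group means, among 12190 genes. The points share mice, depth and free RNA, so this is a description. For Slc11a1 the 3 nearest were Cryba4, Milr1 and Tmem106a (r 0.978 to 0.992), for Slc40a1 Arap3, Tal1 and Fli1 (0.965 to 0.973) and for Cp Rras, Pgf and Tagln2 (0.96 to 0.97). Trf was nearest to Stxbp3, Pigz and Cnp (0.877 to 0.895), Cnp being a myelin enzyme, and Hmox1 to Tlr2, Rps29 and Cxcl10 (0.859 to 0.881). For Fth1 they were Tfeb, Card19 and Lap3, for Ftl1 Tpt1, Rplp2 and Rps29, for Tfrc Plxna2, Stard4 and Palm and for Slc11a2 Gm48855, Gm14636 and Fam214b, all at r 0.839 to 0.917.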

How the data were processed

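Single-cell RNA-seq of 5 tumor and 4 control mice was read from the deposited count matrices. The authors made them with Cell Ranger (6.1.2 in the matrix headers, 7 in the submitters' processing notes) on mm10 with added fusion and reporter sequences, and deposited raw UMI counts for each gene in each barcode. In control 4 the barcode and feature lists were shorter than the matrix (32287 features for 32289 rows), so its barcodes were used by column and its genes were named by the order of the other samples, on which every value of control 4 rests. No deposited cell annotation was used here.

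Per library, barcodes were ranked by UMIs, the top 10000 were taken, and those with 200 to 6000 genes were kept. The component with the higher mitochondrial share in a Gaussian mixture of 2 components (scikit-learn 1.9.0) was removed, as were doublets by Scrublet score (Scanpy 1.11.5) at 0.8% per 1000 barcodes. A cell entered a class with at least 3 of its markers and more marker UMIs than free RNA would give (Poisson p under 0.0001). Neural progenitor-like cells could also enter by passing this rule for proliferation markers with at least 1 progenitor marker. Those with a fusion or luciferase UMI were moved to the fusion-allele cells. Only 1 class was allowed per cell, microglia-like and macrophage-like cells being told apart by the number of markers. This gate rule was set after the data were seen. Free RNA was the sum of the 3000 barcodes with fewest UMIs, and its share of a class was estimated from 10 neuronal transcripts. Counts were summed per mouse and class with at least 20 cells (10 for endothelial-like and macrophage-like cells, chosen after seeing the data) and tested with edgeR 4.0.16 (TMM, filterByExpr, quasi-likelihood) over all genes, with Benjamini-Hochberg adjustment at 0.05. Comparisons within a group had the mouse as a block. Ratios and differences between classes were tested by exact permutation over mice. Alternatives were DESeq2 1.42.0, limma voom 3.58.1, other filters, gates and scalings, and leaving out each mouse. The tests were checked on simulated counts.

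Replicates were separate mice by their labels alone. In a check for duplicate libraries, no pair within a group agreed within sampling noise (lowest chi-square per degree of freedom 4.17 of 16 pairs). Controls and tumors share replicate numbers, but the deviations of same-numbered mice correlated at 0.051, 0.025, −0.0057 and 0.037, so the numbers were not taken to pair them. All members called were named in every comparison, and of the other pathway genes up to 4 called genes per list with the highest mean level, except for a gene that is not reported here. The members and lists were chosen with earlier results of these data known. Precision is limited by the number of mice and, for rare transcripts, by counts. A floor of 3 counts was used for a class without a UMI, and it covers counting error only.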

Additional observations from a re-analysis of the deposited data

Results flagged for a closer look

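Values of single mice that stood apart from the rest of their group were looked for with Dixon's test at the 95% level, in 87 groups of 4 or 5 mice. Chance alone marks about 1 in 20 such groups, and 10 were marked. Their cause was not tested.

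Tumor 3 stood above the other tumors for Slc40a1 in all kept cells (89.3 CPM, the next tumor at 22.2) and in microglia-like cells (227, next 57.9), and for Slc11a1 in microglia-like cells (186, next 138). It was also the tumor with the highest microglia marker level in that class, and Hbb-bs, a haemoglobin gene, stood at 966 CPM there against 6.00 to 25.1 in the other tumors. Its Slc11a2 in fusion-allele cells, 24.7 CPM from 12 UMIs, was above the next tumor at 10.8.

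Tumor 5 stood above the others for Tfrc in microglia-like cells (40.2 CPM, next 16.6) and in fusion-allele cells (135, next 66.4), and below for Fth1 in neuron-like cells (2006, next 3829). Tumor 2 stood above for Hmox1 in astrocyte-like cells (198 CPM, next 35.2) and Cp in neuron-like cells (49.3, next 10.5). Among controls, Ftl1 in microglia-like cells of control 1 (592 CPM) lay below the other 3, of which the nearest was at 798.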

How the results depend on the processing

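Counts of members called, with their main value first, moved by over 1.5 times as follows, and smaller changes in these classes are not listed. In all kept cells 7 stayed between 6 and 9. In microglia-like cells 5 became 3 with limma voom and stayed between 4 and 6 otherwise. In endothelial-like cells 2 became 4 without the filter on low counts. In astrocyte-like cells 2 became 1 with limma voom, 1 with a mitochondrial limit of 10% and 0 with free RNA subtracted. In oligodendrocyte-like cells 1 became 2 with DESeq2, 4 without the filter, 2 with the mitochondrial limit of 10% and 2 with 20000 barcodes. In neuron-like cells 2 became 4 with DESeq2, 4 without the filter and 1 when doublets were kept. For macrophage-like against microglia-like cells 1 became 4 with the mitochondrial limit, 2 with doublets kept, 0 with 5000 barcodes, 3 with 20000, 2 with 1 more marker, 0 with DESeq2, 3 with limma voom, 2 without the filter and 0 without the mouse block. Within tumors 51 became 29 without that block, and 5 of 15 ratios became 3 of the 9 that could be taken with free RNA subtracted, where Tfrc to Fth1 in microglia-like cells kept its call and direction, Fth1 to Ftl1 there turned, and Tfrc to Fth1 in astrocyte-like cells was added.

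No paired reading of the replicate numbers was made. With the number as a replicate block, neuron-like cells kept 1 of 2 calls, Ftl1 being lost (adjusted p = 0.0581). Under this block Tfrc and Trf passed in all kept cells. Cp passed in microglia-like cells, where it passes the low-count filter of that fit. This gave 9 and 6 calls.

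Leaving out 1 mouse at a time gave 6 to 9 calls in all kept cells, 4 to 5 in microglia-like, 2 to 3 in endothelial-like, 1 to 2 in astrocyte-like, 1 to 3 in oligodendrocyte-like and 2 to 3 in neuron-like cells, 0 to 2 for macrophage-like cells, 44 to 51 within tumors, 30 to 36 within controls, 0 to 9 ratios and 0 to 0 differences between classes, which this number of mice could hardly pass. The called values that turned their sign were Trf in erythroid-like cells of controls (−0.0708 with library size alone) and the log2 ratio of Fth1 to Ftl1 with free RNA subtracted (4.00 in microglia-like, 5.14 in astrocyte-like cells). Of values that were not called, Slc40a1 in microglia-like cells turned to −0.60 and passed without tumor 3. It was also below 0 with library size alone, free RNA subtracted, limma voom and the replicate block, a fit that leaves out tumor 5. Of 19 calls between tumors and controls 13 held under every alternative, of 87 within groups 50, and of 5 ratios 0. The test of macrophage-like cells between groups could not be fitted. Depth limited Hmox1, Slc11a1, Slc11a2 and Cp in small control classes, and free RNA limited Fth1, Ftl1 and Trf in control cells.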
